A study of Mus musculus with 18 samples.

Results

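The messenger RNA held in free ribonucleoprotein particles (RNPs, messenger RNA bound by proteins and not loaded with ribosomes) of the mouse testis was compared between 17 days of age and adulthood. The comparison holds 6 of the series' 18 arrays: 3 of the RNP fraction of 17-day testes and 3 of the RNP fraction of adult testes, taken as adult minus 17 days over all probe sets that are not array controls. All animals were of the outbred CD1 strain, and the labels name no genotype, treatment or adult age in days. They call the 3 arrays of each group biological replicates without saying how many testes each one pooled. Nothing further shows that they came from separate animals. The spread behind each p-value is that within groups of 3 arrays, pooled over all 18 arrays of the series. It may be technical in part.

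The study layered a cytoplasmic extract of whole testis on a 10 to 30% sucrose gradient and split it into 17 fractions. RNA of fractions 2 to 8 was taken as the RNP fraction, and RNA of fractions 11 to 17 as the polysome fraction, at 17 days, 22 days and in the adult. Transcripts whose share between both fractions shifted with age were the stated interest. The values are array intensities on a linear scale, scaled by the authors to the same trimmed mean on every array, so they give a transcript's place among all transcripts of its fraction and not the amount of RNA in it.

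Spermatogenesis runs from spermatogonia through meiotic spermatocytes to haploid round and elongating spermatids, all nursed by Sertoli cells. The first wave after birth is synchronous: at 17 days the most advanced germ cells are spermatocytes, by 22 days round spermatids are present, and the adult holds every stage. Transcription stops as spermatid chromatin is compacted, so the messenger RNAs of late sperm proteins are made in round spermatids, stored in RNPs bound by proteins such as the Y-box protein YBX2, and loaded on ribosomes days later. Protamines and transition proteins, which replace histones in the sperm head, are the classic stored messages. A whole testis is a mixture, and fewer cells of a type and less RNA per cell cannot be told apart in it.

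Of the 22626 probe sets that are not controls, 14066 passed a filter on low values (at least 3 of 18 arrays above 51.6). They represent 8713 genes, each read here through its probe set of highest mean. A dim gene could pass the filter through the 3 arrays of 1 group alone, the group where it is high. Changes are differences of log2(intensity + 15) from a limma fit over all 18 arrays, with Benjamini-Hochberg adjusted p-values over all 14066 probe sets and 0.05 as the threshold, and a fold is 2 to the power of that difference. Adding 15 makes the folds of dim transcripts too small. Array medians lay between 42.8 and 54.4 in these 6 arrays. Correlations of log2 values were 0.942 to 0.981 within 17 days, 0.914 to 0.926 within adults and 0.693 to 0.766 between the ages. Signal of the poly-A control transcripts was 133, 468 and 116 at 17 days and 162, 53.5 and 39.6 in adults, and the ratio of the 3′ to the 5′ Actb probe set was 2.41, 3.01 and 2.37 against 1.6, 2.12 and 1.51. The 17-day replicate 2 was the highest in both values, and both were lower on average in adults. Their part in the changes was not tested, and values without that array are given where they matter.

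In RNPs, 6462 of the tested probe sets (45.9%) changed between 17 days and adulthood: 1991 (14.2%) rose and 4471 (31.8%) fell. Of the genes, 4024 (46.2%) changed, of which 1383 (15.9%) rose and 2641 (30.3%) fell. All 3 adult arrays lay above all 3 17-day arrays for 1679 genes (19.3%) and below them for 2883 (33.1%), and in probe sets for 2441 (17.4%) and 4840 (34.4%). Fewer genes rose than fell, and the rises reached further. At least 2-fold changes were 858 rises (9.85%) and 1624 falls (18.6%) in genes and 1239 (8.81%) and 2883 (20.5%) in probe sets. At least 4-fold changes of genes were 406 and 210, and at least 8-fold 228 and 13. Beyond that, 132 genes rose at least 16-fold, 39 at least 64-fold and 4 at least 256-fold, and no gene fell 16-fold on this scale. The largest fall was 13.8-fold.

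The median gene changed by -0.22 on the log2 scale, and the median probe set by -0.28. With quantile normalization over all arrays the split was 2476 up and 3639 down, with each array centred on its median 2495 and 3626, and with quantile normalization within each fraction 2520 and 3700. The share of calls that were rises was 30.8% as deposited and 40.5 to 40.8% under these scalings.

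The largest rises were led by genes of proteins that compact sperm chromatin. Of these, Tnp2, Prm2 and Prm1 lie in a cluster on chromosome 16 that also holds Prm3, which rose less. In RefSeq gene order Tnp2, Prm3, Prm2 and Prm1 lie side by side between Socs1 and Rmi2. The stretches of 120 bases before their RefSeq start sites (GRCm38.p6, minus strand, 5′ to 3′) are shown because all 4 genes moved together. Capitals mark the letters TATA where they begin 40 to 20 bases before the start.
Tnp2, chr16:10788656-10788775: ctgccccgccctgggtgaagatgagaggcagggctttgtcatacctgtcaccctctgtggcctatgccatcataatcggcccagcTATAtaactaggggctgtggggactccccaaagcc
Prm3, chr16:10790915-10791034: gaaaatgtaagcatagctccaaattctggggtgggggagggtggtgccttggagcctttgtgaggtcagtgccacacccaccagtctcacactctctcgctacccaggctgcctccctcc
Prm2, chr16:10792106-10792225: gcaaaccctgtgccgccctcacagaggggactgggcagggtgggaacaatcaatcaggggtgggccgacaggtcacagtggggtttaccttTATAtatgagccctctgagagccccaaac
Prm1, chr16:10796824-10796943: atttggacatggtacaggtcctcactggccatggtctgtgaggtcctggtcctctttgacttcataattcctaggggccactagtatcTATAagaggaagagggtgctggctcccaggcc
The letters TATA, the same on both strands, begin 35 bases before the start of Tnp2, 29 before that of Prm2 and 32 before that of Prm1, and are not found in this window of Prm3. Over all 32851 RefSeq promoter windows of mouse, 5.81% have TATA so placed. Of the tested genes with a window, 4.71% have it, and so do 6.82% of the genes that rose and 3.82% of those that fell. These shares describe letters and not binding sites, and the window was chosen after the data were seen.

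Prm1 encodes protamine 1, which binds sperm DNA in place of histones. Its RNP intensity was 32.8, 16.3 and 33.4 in the 17-day replicates and 9194, 11068 and 10670 in the adult ones, a rise of 7.95 ± 0.80 (SE) on the log2 scale (adjusted p = 4.17e-07). For Prm2, protamine 2, the values were 37.7, 4.5 and 27 at 17 days and 8577, 9394 and 10795 in adults, a change of 8.09 ± 0.79 (SE) (adjusted p = 2.58e-07). The ages were far apart in every replicate of both genes. Each SE also carries the spread within groups outside this comparison. On the RNP arrays at 22 days Prm1 read 2959.8, 121.3 and 962.4.

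Transition proteins occupy the chromatin between histones and protamines. Tnp2 read 7.6, 2.3 and 2.1 at 17 days and 6130, 6362.5 and 7407 in adults, the largest rise of all genes tested at 8.46 ± 0.87 (SE) (adjusted p = 5.3e-07). Tnp1 read 3.4, 2.3 and 1.8 and then 4485, 6556 and 6967 (8.40 ± 0.78 (SE), adjusted p = 1.51e-07). Hils1, a spermatid linker histone, read 3.4, 4.4 and 2.6 and then 6504, 7030.2 and 4877, with a change of 8.36 ± 0.47 (SE) (adjusted p = 5.36e-10). The 17-day values of these 3 genes are at background, so their folds depend on the 15 that was added. Prm3, a protamine-like gene inside the cluster, read 24.6, 29 and 32.9 and then 1981, 2384 and 3051, and rose by 5.81.

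The tested genes on either side of the cluster did not rise. Socs1, an inhibitor of cytokine signalling, changed by 0.23 (adjusted p = 0.501), and Clec16a by -0.36 (adjusted p = 0.166). Litaf, beyond Rmi2, fell by 1.72 on the log2 scale (adjusted p = 4.42e-06), from 536, 588 and 473 to 155.5, 147 and 148. Rmi2 and Snn were not tested.

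**Figure D1:**
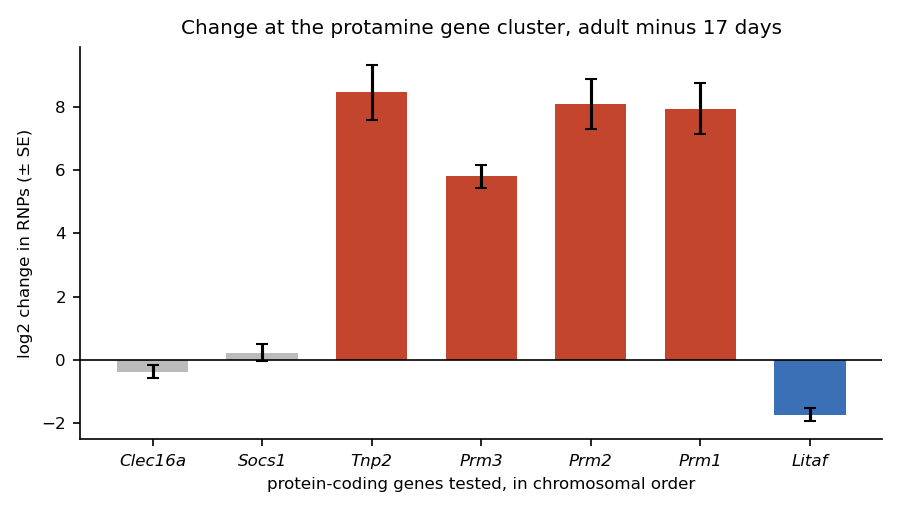
Log2 change in RNPs, adult minus 17 days, with its standard error for the tested protein-coding genes around the protamine cluster, in chromosomal order. Red bars passed as rises, blue as falls and grey did not pass; Tnp2, Prm3, Prm2 and Prm1 rose by 5.81 to 8.46, while Clec16a and Socs1 changed by -0.36 and 0.23.

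Of the 9 tested genes on the chromatin condensation list, those 6 rose and 1 fell (66.7% and 11.1%, where 15.9% and 30.3% of all genes did). The fall was Rnf8, a ubiquitin ligase that acts on histones before their removal, from 223, 238.5 and 244.5 to 109, 77.1 and 62.3 (-1.38, adjusted p = 4.45e-05). Brdt, the bromodomain protein that reads acetylated histones in spermatids, was 487, 311 and 475 and then 352, 1013 and 537.5, with overlapping ages (adjusted p = 0.388). H1f6, a testis linker histone, changed by 0.18 (adjusted p = 0.679). The list's median change was 7.95, against -0.22 over all genes. Its summed intensity went from 635 to 857 per 17-day array to 37367 to 44395 per adult array.

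**Figure D2:**
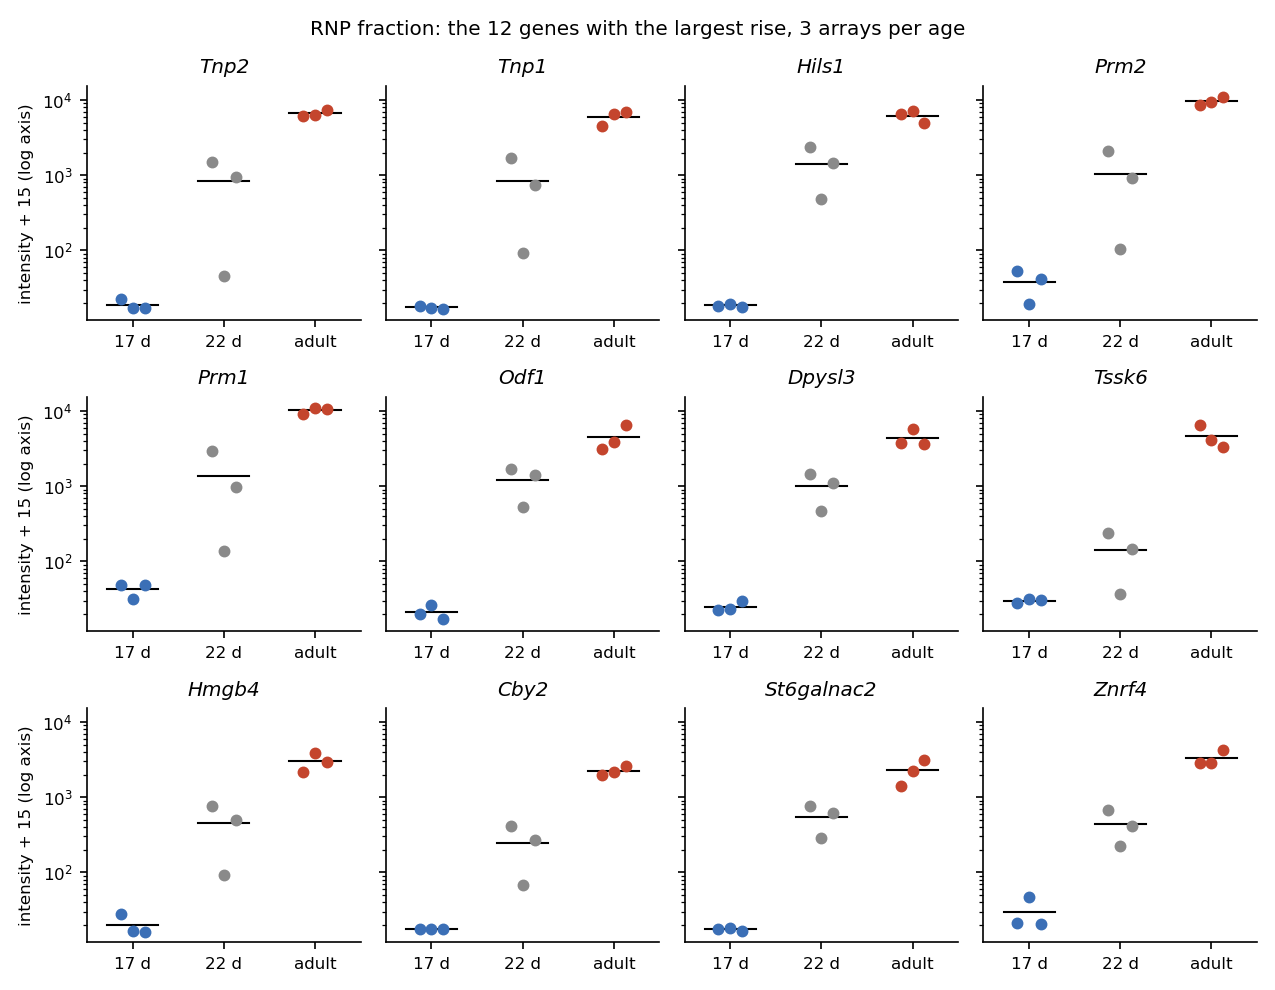
RNP intensity plus 15 on a log axis at 17 days, 22 days and in the adult for the 12 genes with the largest rise; each point is 1 array and each line the mean of 3. All adult points lie above all 17-day points in every panel, and replicate 2 is the lowest of the 22-day arrays for all 12 genes.

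Genes of the sperm tail rose in most cases. Of 28 tested members, 20 rose and 1 fell (71.4% and 3.57%, where 15.9% and 30.3% of all genes did), with a median change of 1.18. Odf1, a structural protein of the outer dense fibres, read 4.8, 11.2 and 2.1 at 17 days and 3082, 3914 and 6541 in adults (7.70 ± 0.42 (SE), adjusted p = 3.75e-10). Smcp, a cysteine-rich protein of the mitochondrial capsule whose message is a known case of delayed translation, read 29.2, 38.4 and 19.3 and then 3682, 5005 and 6154, a rise of 6.81 ± 0.33 (SE) (adjusted p = 1.97e-10). The spread between replicates was small beside either change.

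Odf3 rose by 6.53 and Spata19, a mitochondrial protein of the sperm midpiece, by 6.51. The anchoring proteins of the fibrous sheath also rose: Akap4 by 4.99 (from 26.8, 44.9 and 28.7 to 686, 1719 and 2899) and Akap3 by 4.38. Ropn1, which docks on those anchors, rose by 5.30, and the tubulin-associated Tekt2 by 2.59. Other members were already bright at 17 days and rose less or fell. Odf2, the other major dense fibre protein, went from 1395, 1064.5 and 1355 to 1940.4, 3060 and 5270.5 (1.31, adjusted p = 0.00152), and Ropn1l from 3322, 3554 and 3388.5 to 5289, 5714 and 5739.5 (0.70). The axonemal gene Rsph1 fell by 0.81 on the log2 scale, from 4508, 5140.5 and 5457 to 1982.5, 3186 and 3657 (adjusted p = 0.00908). Gas8, of the dynein regulatory complex, read 139, 55.8 and 154 and then 15.4, 9.4 and 158.5 and did not pass (adjusted p = 0.062).

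Acrosome and sperm surface genes included both new arrivals and messages that were bright throughout. Of 32 tested, 18 rose and 1 fell (56.2% and 3.12%, where 15.9% and 30.3% of all genes did), with a median of 1.23. The rises were led by actin-like and capping proteins of the developing sperm head: Actl7a (15.1, 30.2 and 6.5 to 2461, 2171 and 2827, a change of 6.33 ± 0.41 (SE)), Actrt2 (6.23) and Capza3 (5.94). Galntl5, a glycosyltransferase-like protein, rose by 5.45, the acrosomal membrane protein Eqtn by 4.21, and Ace, whose testis form is made in spermatids, by 3.71. The hyaluronidase Spam1 rose by 2.10 at low intensity, from 10.2, 1.9 and 8.8 to 44.8, 118 and 84.1.

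Other genes of the same list, known to be transcribed from the spermatocyte stage onward, were bright at both ages. Acr, the acrosomal protease acrosin, read 723, 759.5 and 797 and then 1053, 867 and 2082 (0.70 ± 0.27 (SE), adjusted p = 0.0408). Its ages did not overlap, but the call ended when adult replicate 3 was left out (0.33, adjusted p = 0.274), as it did without any one 17-day array (adjusted p 0.0721 to 0.105) and with quantile normalization (0.137). Crisp2, an acrosomal and tail protein, read 1938, 1138 and 1966 and then 1262, 3082 and 2802; the ages overlapped and the change of 0.44 did not pass (adjusted p = 0.439). Adam2, of the fertilin complex, changed by 0.16 (adjusted p = 0.722). Tex101, a germ cell surface protein, fell by 2.07 on the log2 scale, from 2062, 2226 and 1896 to 719, 376 and 403 (adjusted p = 0.00195).

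Germ cells use their own isoforms of metabolic enzymes. On the germ cell isozyme list, which also holds heat shock protein and tubulin genes, 15 of 24 tested genes rose and 2 fell. These are 62.5% and 8.33%, where 15.9% and 30.3% of all genes did. The heat shock protein gene Hspa1l went from 1.5, 1.2 and 1.1 to 1015, 1277.5 and 1396 (6.25 ± 0.55 (SE), adjusted p = 7.16e-08). The sperm aldolases Aldoart2 and Aldoart1 rose by 5.22 and 3.62, the tubulin Tuba8 by 4.83, and the hexokinase gene Hk1, which has sperm transcripts, by 3.21. Gapdhs, the sperm form of glyceraldehyde-3-phosphate dehydrogenase, was kept with ion channels and signalling and had the largest change of that list, from 92.5, 55.5 and 39.1 to 6263.5, 6794 and 6263 (6.44 ± 0.36 (SE), adjusted p = 5.02e-10).

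Isozymes first made in spermatocytes moved less. Pgk2, the germ cell phosphoglycerate kinase, read 392, 347 and 378 and then 1026.5, 2234 and 2175, a rise of 2.16 ± 0.33 (SE). Ldhc, the testis lactate dehydrogenase, read 6649.5, 7156 and 6873 and then 8406, 10352.5 and 10131, a rise of 0.48 ± 0.11 (SE) (adjusted p = 0.00187). With quantile normalization the Ldhc change was 0.01 (adjusted p = 0.925), so its call rests on the scaling. Hspa2, a chaperone needed in meiosis, read 905, 689 and 781 and then 1234, 1014 and 2272 (0.84, adjusted p = 0.0277), and without adult replicate 3 its change was 0.50 (adjusted p = 0.175); its call also ended without 17-day replicate 2 (0.083) or 3 (0.0637) and with quantile normalization (0.106). The falls were the tubulin gene Tubb3 (-0.80) and the glutamate dehydrogenase gene Glud1 (-1.42).

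Of 14 tested ion channel and signalling genes 7 rose (50%) and 0 fell, where 15.9% and 30.3% of all genes did. Plcz1, the sperm factor that starts egg activation, went from 5.9, 1.6 and 5.4 to 340.3, 1447.5 and 469 (5.04, adjusted p = 4.49e-08). The calcium channel subunit Catsper1 rose by 3.60 and the sperm potassium channel Kcnu1 by 2.92. Catsper2 read 238, 189 and 239.5 and then 179, 581 and 458, with overlapping ages (adjusted p = 0.225).

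Spermatid kinases and regulators of transcription rose in 16 of 30 cases (53.3%) and fell in 4 (13.3%), where 15.9% and 30.3% of all genes did. The 4 tested testis-specific serine kinases rose: Tssk6 from 12.5, 16.7 and 15.2 to 6433, 4057 and 3338 (7.22 ± 0.49 (SE)), Tssk2 by 6.70, Tssk3 by 6.14 and Tssk1 by 3.77. Fhl5, a coactivator of CREM in spermatids, rose by 6.68 and Klhl10, a ubiquitin ligase adaptor, by 6.30. Sox5 rose by 4.28 and the motor Kif17 by 3.34. Crem itself, the master activator of spermatid genes, read 112, 68.5 and 125.5 and then 65.9, 94.9 and 65.5, with no call (adjusted p = 0.27), and Tbpl1, a TATA-binding protein relative, changed by 0.47 (adjusted p = 0.283). The falls were Taf7l (-0.97), Jmjd1c (-1.15), Stk31 (-1.40) and Gmcl1 (-1.69).

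Several of the 12 largest rises belonged to no list. Hmgb4, a testis chromatin protein, went from 12.9, 1.6 and 1.2 to 2117, 3895 and 2952 (7.22 ± 0.63 (SE), adjusted p = 6.69e-08). St6galnac2, a sialyltransferase, went from 2.8, 3 and 1.7 to 1412, 2243 and 3132 (6.95) and Cby2 from 2.8, 2.5 and 2.5 to 1982, 2161.5 and 2588. Dpysl3, known from growing nerve cells, read 7.7, 8.1 and 14.4 and then 3689, 5716 and 3656 through its brightest probe set; another rose by 3.88 and the last changed by -0.40 without passing.

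Znrf4, a ring finger protein of spermatids, went from 5.9, 31.7 and 5.8 to 2859.9, 2813 and 4255 (6.90 ± 0.43 (SE), adjusted p = 1.53e-09). It is shown with its promoter because it is the 1 gene of the 12 whose window holds TGACGTCA, the full cyclic AMP response element, which CREM binds (capitals, 69 bases before the start, the same on both strands).
Znrf4, chr17:56512484-56512603, minus strand of GRCm38.p6: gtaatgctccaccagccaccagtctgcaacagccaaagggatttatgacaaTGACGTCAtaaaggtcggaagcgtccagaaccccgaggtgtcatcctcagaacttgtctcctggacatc
TGACGTCA is in 1.79% of all RefSeq windows of 300 bases, in 3.67% of the tested genes with a window, in 3.86% of those that rose and in 3.54% of those that fell. Among genes that rose at least 16-fold 4 of 106 with a window hold it.

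**Figure D3:**
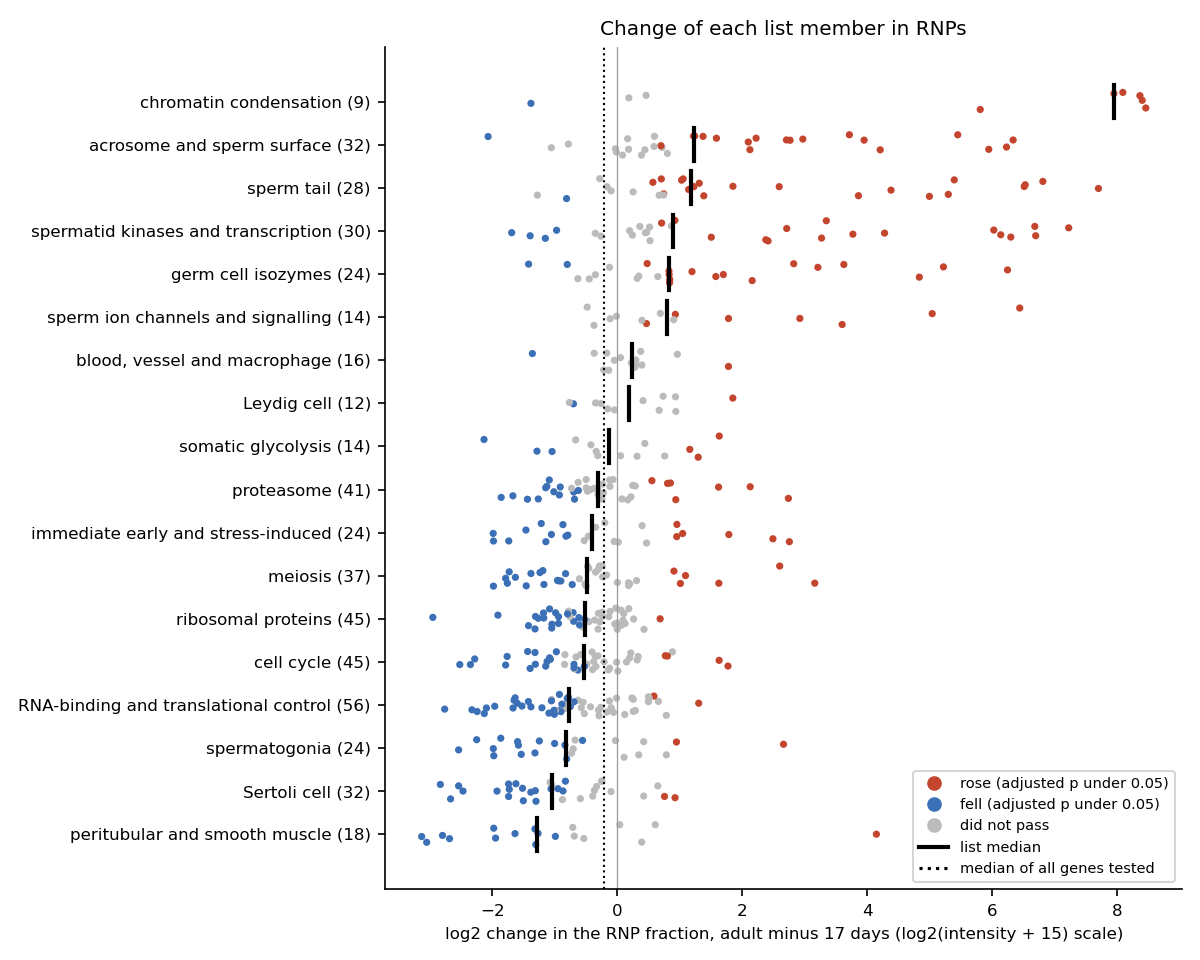
Log2 change in RNPs of every tested member of 18 gene lists, 1 point per gene, ordered by list median (black bar), with the median of all 8713 genes dotted at -0.22. Red points rose, blue fell and grey did not pass. Chromatin condensation stands far right at a median of 7.95 and peritubular genes lowest at -1.29.

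Genes of proteins that bind messages fell more often than they rose. Of 56 tested genes on the RNA-binding and translational control list, 2 rose and 26 fell, where 15.9% and 30.3% of all genes did, a median of -0.77 against -0.22 over all genes. Messages of the storage proteins themselves stayed bright. Ybx2 (MSY2), the main protein of germ cell RNPs, read 3643, 2724 and 3673 and then 5633, 3802 and 6696, all adult values above, without passing (0.66, adjusted p = 0.0608). Ybx3 rose from 2658.5, 1978 and 2724 to 3182, 4115 and 3714 (0.58 ± 0.18 (SE), adjusted p = 0.0115). Ybx1 changed by 0.25 (adjusted p = 0.226). Tdrd7, a protein of the chromatoid body, the RNA granule of spermatids, rose by 1.30, from 442, 569.6 and 395 to 877, 1549 and 1160.

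The falls included genes of translational control and of the piRNA pathway. Spin1 fell by 2.77 on the log2 scale, from 726, 434 and 637.5 to 70.5, 82.2 and 68.2 (adjusted p = 8.91e-06). Dazl, a germ cell translational activator, fell by 2.10, from 727, 765 and 674 to 173, 180.1 and 124 (adjusted p = 5.43e-06). Paip2, an inhibitor of the poly(A)-binding protein, fell by 2.33 and Celf1 by 2.25. Cpeb1, which extends poly(A) tails in meiosis, fell by 1.38. The piRNA pathway genes Piwil2 and Mov10l1 fell by 1.53 and 1.67, Piwil1 by 0.70, and the helicase Ddx6 by 1.64. Ddx4, the germ cell helicase VASA, read 549.9, 354.5 and 615.5 and then 269.5, 567 and 309.5, with overlapping ages (adjusted p = 0.287). Pabpc1 changed by 0.12 (adjusted p = 0.547).

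Meiosis genes fell in 15 of 37 cases (40.5%, against 30.3% of all genes) and rose in 6 (16.2%, near the 15.9% of all genes), with a median of -0.48. Among the synaptonemal complex genes that fell were Sycp3, from 308, 369.8 and 424 to 180.1, 252 and 144 (-0.91 ± 0.25 (SE), adjusted p = 0.00655), Sycp1 by 1.18 on the log2 scale and Tex12 by 1.76. So did recombination genes, Dmc1 by 1.24, Mnd1 by 1.98 and Trip13 by 1.73. The members that rose were led by Rec8, a meiotic cohesin, by 3.16 from near background, and Ccna1, the cyclin of the meiotic divisions, from 98.7, 124 and 87.3 to 1067.5, 542 and 578 (2.60). Aurkc, a kinase of the meiotic divisions, rose by 1.01 and Pttg1, a securin, by 1.09 with overlapping ages. Syce2, of the central element, also rose, by 1.62. Spo11, which cuts DNA to start recombination, rose by 0.91 (adjusted p = 0.031).

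Of 35 spermatogonial genes on the array 24 passed the filter, and of these 14 fell (58.3%) and 2 rose (8.33%). Cell cycle genes fell in 18 of 45 cases (40%) and rose in 4 (8.89%). Of all genes, 30.3% fell and 15.9% rose. Stra8, the retinoic acid response gene of cells entering meiosis, went from 142, 154 and 113 to 24.6, 10.3 and 16.2 (-2.25 ± 0.23 (SE), adjusted p = 5.47e-07). Dmrt1 fell by 2.54 on the log2 scale, Crabp1 by 1.98, Uchl1 by 1.60 and Lin28a by 1.25. Both members that rose were Dnmt3l, from 16.1, 4.7 and 6.7 to 135, 128 and 141 (2.66), and Dmrtb1 (0.95). Dnmt3l, a cofactor of de novo DNA methylation, lay below all its adult values on every 17-day array. All replication licensing genes from Mcm2 to Mcm7 fell, Mcm6 and Mcm2 the most (-2.35 and -2.28), followed by Mcm3 (-1.79), Mcm5 (-1.15), Mcm4 (-0.98) and Mcm7 (-0.63). Cenpa, the centromeric histone, fell by 2.52, from 171, 193 and 174.5 to 25.1, 29.6 and 6.6. Ccnd3 and Plk1 rose by 1.63 and 1.77, though the Plk1 ages overlapped.

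Sertoli and peritubular cell genes fell more often than they rose. Of 32 tested Sertoli cell genes, 18 fell (56.2%, against 30.3% of all genes) and 2 rose, and with either quantile normalization 14 fell and 3 rose. Their summed intensity went from 7195 to 8202 per 17-day array to 1875 to 3801 per adult array. Vim, the intermediate filament vimentin, fell from 709, 454.5 and 701 to 216, 35.7 and 42.3 (-2.83 ± 0.45 (SE), adjusted p = 6.78e-05). The cystatin gene Cst12 fell by 2.67 on the log2 scale, Sparc by 2.47, Aard by 1.93 and the Sertoli transcription factor Wt1 by 1.52. The markers Sox9 (-0.25, adjusted p = 0.413) and Amh (-0.33, adjusted p = 0.555) did not pass, and Amh was near background at both ages. Clu, clusterin, read 454, 1247 and 323 and then 552, 329 and 101 through its brightest probe set. The ages overlapped there, and the change of -1.05 did not pass (adjusted p = 0.154). Of its 3 other probe sets 2 were called as falls (-1.37, adjusted p = 0.0349, and -1.39, 0.0454). The last changed by -1.67 and did not pass (0.0563). Fshr and Cdh2 rose, by 0.75 and 0.92.

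Peritubular and smooth muscle genes fell in 11 of 18 cases (61.1%) and rose in 1 (5.56%), where 30.3% and 15.9% of all genes did. Their median was -1.29, and their sums were 3397 to 4417 at 17 days and 2351 to 2447 in adults. Tpm1, tropomyosin, went from 238.5, 132 and 189.8 to 2.9, 3.2 and 19.7 (-3.13 ± 0.41 (SE), adjusted p = 8.27e-06). The myosin light chain gene Myl9 fell by 3.05 and the collagens Col3a1 and Col4a1 by 2.80 and 2.69. The rise was Actg2, an actin, from 39, 42.7 and 43.2 to 724, 1008.5 and 1315 (4.15), and it is part of the adult sums.

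Genes of Leydig cells, which make testosterone, mostly did not pass. Of 12 tested, 1 rose and 1 fell in RNPs (8.33% each, where 15.9% and 30.3% of all genes did). Sums were 2745 to 3487 at 17 days and 2402 to 3975 in adults. Ptgds, prostaglandin D synthase, rose from 55.4, 41.5 and 58.5 to 382, 200.2 and 144.5 (1.85 ± 0.29 (SE)). Cyp17a1 read 49.9, 97.2 and 68.6 and then 390, 86.3 and 87.5, with overlap (adjusted p = 0.172), and Star changed by -0.05. Nr5a1 fell by 0.70 (adjusted p = 0.0197), a call that ended without 17-day replicate 2 (0.0728), 17-day replicate 3 (0.0578) or adult replicate 2 (0.0721) and under quantile normalization (0.182). Of 16 blood, vessel and macrophage genes 1 rose, C1qb (1.78), and 1 fell, Lyz1 (-1.36), which is 6.25% each. How far the mix of cells moved the other lists was not tested.

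The largest single falls were of genes not known as germ cell markers. S100a10, which binds annexin A2, went from 253, 273 and 302 to 8.3, 4.2 and 5.7 (-3.79 ± 0.28 (SE), adjusted p = 8.78e-09). Fxyd6, a modulator of the sodium pump, went from 268, 311 and 258 to 13.5, 5.5 and 20.1 (-3.42) and Rpa2, of the single-stranded DNA binding complex RPA, from 198, 213 and 201 to 6.8, 5.8 and 8.1 (-3.32). No adult value of these 3 genes exceeded 20.1, that of Fxyd6 in replicate 3.

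The glutathione transferase Gstm6 fell by 3.32, the muscle LIM protein gene Csrp1 by 3.20, Nfic by 3.07, the serine synthesis gene Psat1 by 3.06, Tsc22d3, a glucocorticoid target, by 3.05 and Ppp1ca, a protein phosphatase catalytic subunit, by 3.03. Ppp1cc, whose product is the form found in sperm, rose by 0.47, from 3630.1, 3182 and 3655 to 4125, 5448.5 and 4958 (adjusted p = 0.0167). Txn1, thioredoxin, fell by 3.20 through its brighter probe set, from 449, 409.9 and 458 to 23.9, 82.6 and 16.8, while a dimmer set averaged 84.4 and then 130 and was called the other way. Its direction is therefore uncertain.

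**Figure D4:**
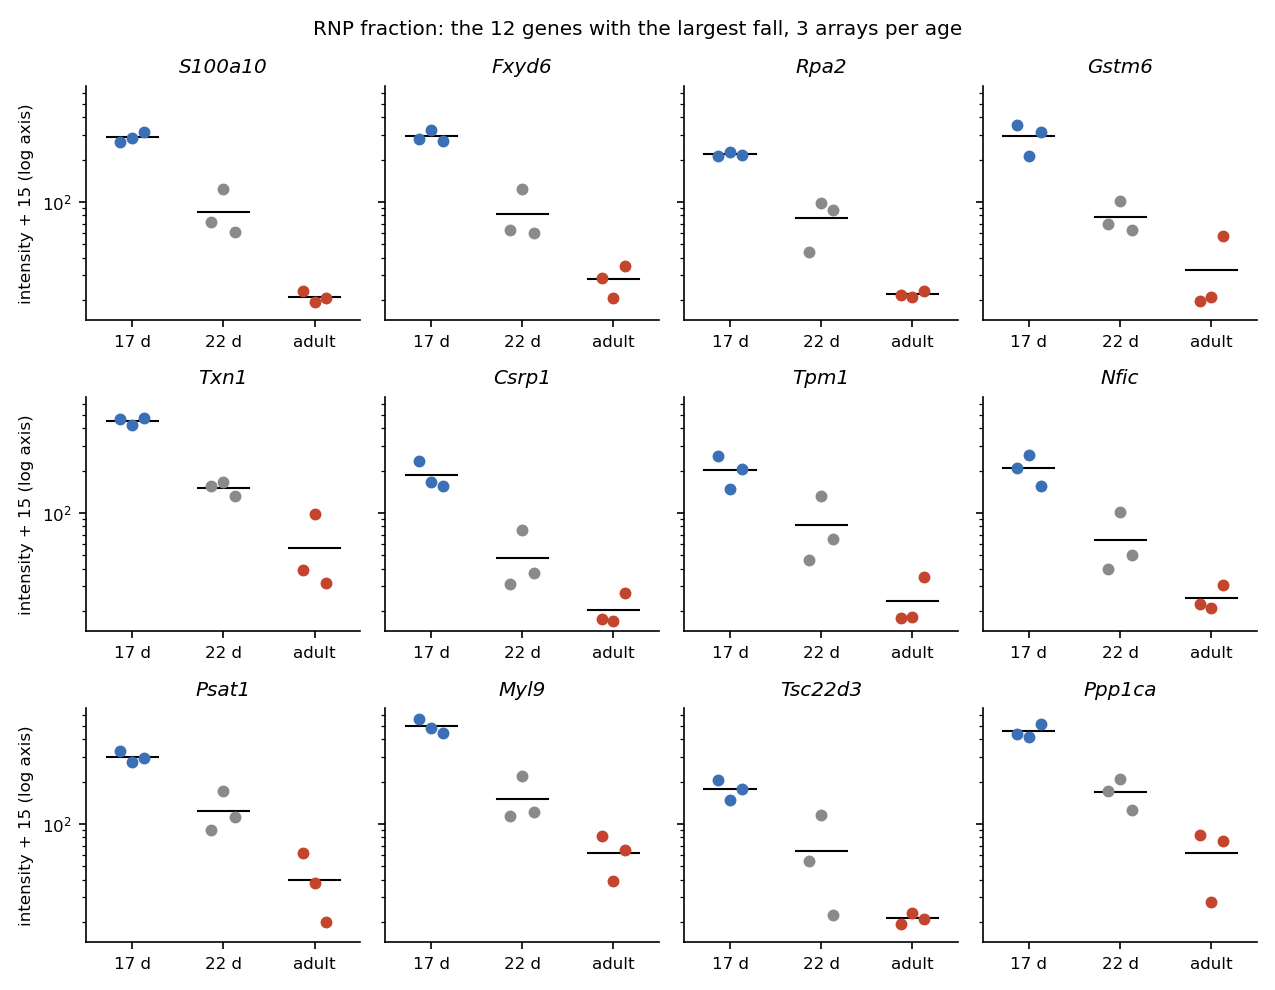
RNP intensity plus 15 on a log axis at 17 days, 22 days and in the adult for the 12 genes with the largest fall; points are arrays and lines means of 3. All 17-day points lie above all adult points, and most adult points are near the floor of the scale.

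Ribosomal protein genes fell in 20 of 45 cases (44.4%, against 30.3% of all genes), and in 18 to 29 under the other scalings. The 1 rise was Rpl39l, the copy used in the testis (2845, 3139.9 and 3310.3 to 4929.9, 5577 and 4482, 0.68). Rps4x, on the X chromosome, fell by 2.95, from 2305, 1165 and 2114 to 158, 271 and 238, and Rps9 by 1.42, with another Rps9 probe set called the other way. Proteasome genes rose in 7 of 41 cases (17.1%) and fell in 13 (31.7%), shares near the 15.9% and 30.3% of all genes. Psmf1, an inhibitor subunit, rose by 2.74 through its brightest probe set, and its other 2 changed by -0.49 and -0.40 without passing (adjusted p = 0.0874 and 0.14). Psma6 rose by 1.62, and Psma8, the subunit made in spermatocytes, fell by 1.44. Psme3 rose by 2.13 through its brighter probe set, and the other was called as a fall.

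Of 14 somatic glycolysis genes 3 rose and 3 fell (21.4% each, against 15.9% and 30.3% of all genes). Their median was -0.13 and turned to between 0.01 and 0.02 under the other scalings. Aldoa rose by 1.63 and Pgam1 fell by 2.14. Immediate early and stress genes rose in 6 of 24 cases (25%) and fell in 10 (41.7%), against the same 15.9% and 30.3%. Klf4, a round spermatid transcription factor, went from 101, 97.5 and 75.1 to 480.1, 1069 and 655 (2.75) and Nr4a1 from 128, 115 and 90.9 to 799, 502 and 815 (2.49), while Egr1 fell by 1.74 and Hspa8 by 1.99. Actb, often used as a reference, rose from 3682, 3893 and 3609 to 5860.1, 5240.3 and 6475 (0.65 ± 0.13 (SE), adjusted p = 6.64e-04). A dimmer Actb probe set changed by -0.28 without passing (adjusted p = 0.418).

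The 3 RNP arrays at 22 days divide the change into a part before and a part after that age. The parts share the 22-day arrays, and each shares arrays with the whole change. From 17 to 22 days 1450 genes (16.6%) changed, 578 (6.63%) up and 872 (10%) down, and from 22 days to adulthood 1255 (14.4%) changed, 601 (6.9%) up and 654 (7.51%) down. In probe sets the first part held 2243 changes (15.9%), 778 up (5.53%) and 1465 down (10.4%), and the second 1968 (14%), 857 up (6.09%) and 1111 down (7.9%). For Odf1 the log2 change was 5.69 and then 2.01, for Smcp 5.04 and 1.77, and for Hils1 5.99 and 2.37, so most of the log2 change in these genes was in place at 22 days. Prm1 moved by 4.14 and then 3.81, Prm2 by 4.07 and 4.02, and Tnp2 by 4.41 and 4.05.

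Late movers were also seen. Tssk6 changed by 1.88 and then 5.35, Fscn3, an actin-bundling protein of the sperm head, by 1.16 and 4.23, and Hspa1l by 2.71 and 3.53. Cdkn1c and Syce2 changed by -0.71 and -0.32 before 22 days and by 3.92 and 1.95 after. The 22-day replicates differed widely in late genes: Tnp2 read 1483, 30.1 and 926, Prm1 2959.8, 121 and 962 and Tssk6 223, 21.9 and 133, with replicate 2 lowest in each. Among lists, the Sertoli median changed by -0.82 and then -0.11, and the chromatin condensation median by 4.07 and then 2.76.

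The same ages were compared on polysomes, which share no array with the RNP comparison. On polysomes 2609 genes (29.9%) changed, and 1176 (13.5%) of all genes rose and 1433 (16.4%) fell. In probe sets 4107 (29.2%) changed, 1677 up (11.9%) and 2430 down (17.3%). In both fractions 852 genes rose, 61.6% of the RNP risers and 72.4% of the polysome risers, and 1148 fell, 43.5% and 80.1%. The change differed between fractions for 104 genes (1.19%) by the interaction term, 37 (0.425%) higher in RNPs and 67 (0.769%) higher on polysomes. RNP and polysome arrays of the same age and number deviated together (correlations 0.197 to 0.585 in all 9 pairs). The labels do not state that such arrays are pairs, so the pairing was taken from these data. With that pair as a block 991 genes (11.4%) differed, 287 and 704, on 6 residual degrees of freedom. In probe sets the interaction count was 164 (1.17%), 57 (0.405%) higher in RNPs and 107 (0.761%) lower, and it moved with single arrays: 49 without polysome 17-day replicate 1, 53 without replicate 3, 59, 103 and 60 without RNP 17-day replicates 1, 2 and 3, 84 without polysome adult replicate 3, 272 without polysome adult replicate 1 and 328 without RNP adult replicate 1.

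The stored messages of the sperm head and tail rose on polysomes too. Prm1 read 69, 7.8 and 33.1 at 17 days and 9218, 10117 and 6893 in adults on polysomes, a change of 7.58, and the difference between fractions was 0.37 ± 1.14 (SE, adjusted p = 0.92). With the pair block its SE was 0.377 (adjusted p = 0.569). Smcp changed by 7.14 on polysomes and Odf1 by 7.63. Among the 12 largest RNP risers 0 passed the interaction, and with the pair block Znrf4 (difference 1.80, adjusted p = 0.019) and Dpysl3 (0.91, 0.048) did. The SE of the difference was as large as 1.24 for Tnp2 (0.51 with the block), so a missing call does not show equal change. Among the 12 largest falls Txn1 (-2.28) and Rpa2 (-2.08) fell further in RNPs, and 9 of 12 did with the block. Of all genes, 0.769% and 8.08% had a lower change in RNPs. Both sets of 12 were picked on their RNP change, which is part of this difference, so these counts are not separate support. A second Rpa2 probe set differed by -0.51 without passing the interaction (adjusted p = 0.513).

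Among genes whose change was higher in RNPs than on polysomes the largest difference was that of Tubb6, a beta tubulin. In RNPs it read 7.8, 12.9 and 17.5 and then 345, 318 and 248, and on polysomes 84.1, 79.9 and 78.1 and then 98.4, 48.9 and 94.2. The difference was 3.57 ± 0.49 (SE, adjusted p = 0.00238). Cdkn1c, a cyclin-dependent kinase inhibitor, read 34.7, 81.1 and 25.8 and then 669.6, 657 and 325 in RNPs and 85.5, 99 and 54.3 and then 143.5, 89.1 and 77.1 on polysomes (2.90, adjusted p = 0.00876). Only the RNP values of both genes separated the ages.

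Itsn2, an endocytic scaffold, differed by 2.43 (adjusted p = 0.00553), Prkcd, protein kinase C delta, by 2.19 (0.0146) and Smad6, an inhibitor of BMP signalling, by 2.05 (0.0138). Prkcd rose in both fractions, by 4.27 in RNPs and 2.08 on polysomes. 1190005I06Rik (2.12), the mitochondrial carboxylase gene Pccb (2.10) and Epb41l4a (2.07) complete the 8 with the largest difference that also passed in RNPs. These last 3 calls each ended without some single array, polysome 17-day replicate 1 or 3 among them, at adjusted p-values within 0.0505 to 0.102.

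In the other direction, Ptgds differed by -2.94 (adjusted p = 0.00256): its polysome values went from 53.5, 88.4 and 34.2 to 1927, 2049.9 and 1830.5. Lcn2, a secreted iron-siderophore binder, went from 5.2, 3.5 and 6.5 to 200.1, 72.9 and 106 in RNPs and from 6.8, 15 and 11.7 to 1139, 1008 and 1493 on polysomes (-2.83, 0.00264). With 1 added in place of 15 the Lcn2 difference did not pass (adjusted p = 0.114). Klk1b24, a kallikrein (-2.45), Nat8 (-2.44) and the steroid dehydrogenase Hsd3b3 (-2.41) also differed. The Nat8 and Hsd3b3 differences lost their call without polysome 17-day replicate 1 or 3, and the RNP rises of Nat8 and Klk1b24 lost theirs without adult replicate 1 (adjusted p 0.07 to 0.136), that of Klk1b24 also without 17-day replicate 1 and that of Nat8 without 17-day replicate 2. On the Leydig list 7 of 12 genes (58.3%) rose on polysomes, where 13.5% of all genes did, and 1 (8.33%) rose in RNPs, where 15.9% did. By the interaction 3 (25%, against 0.769% of all genes) had a lower change in RNPs, and 6 (50%, against 8.08%) with the pair block.

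Of germ cell isozymes Pgk2 had a large difference. It rose from 392, 347 and 378 to 1026.5, 2234 and 2175 in RNPs and from 35.6, 46.7 and 20.6 to 649, 1578 and 1352 on polysomes, a difference of -2.40 ± 0.47 (SE, adjusted p = 0.0187). Its 17-day values were all below 51.6 on polysomes, and all above it in RNPs. The call for the difference ended without polysome 17-day replicate 1 or 3 or adult replicate 3, among others, and passed with the pair as a block (adjusted p = 0.00086). A polysome change higher than that in RNPs was called for 2 of 28 sperm tail genes (7.14%), 4 of 24 isozymes (16.7%) and 0 of 56 RNA-binding genes, where 0.769% of all genes had one. With the pair block the counts were 13 (46.4%), 8 (33.3%) and 11 (19.6%), against 8.08% of all genes.

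The genes that fell in RNPs and rose on polysomes were 4. Tesc, tescalcin, a calcium-binding protein of the developing gonad, fell from 156, 214 and 134 to 59.7, 36.6 and 6.6 in RNPs and read 9.4, 45.8 and 21 and then 136, 55.1 and 80.4 on polysomes (-3.46, adjusted p = 0.00876). Thrsp differed by -2.75 (adjusted p = 0.00264), though its RNP fall of 0.73 (adjusted p = 0.0441) ended without 17-day replicate 1 (0.20), 17-day replicate 2 (0.107) or adult replicate 3 (0.164) and with quantile normalization (0.0531). Gpt2 and Trp53inp2 differed by -1.78 and -1.44. Pole2, a DNA polymerase subunit, was the 1 gene that rose in RNPs (0.63) and fell on polysomes (-0.66). All 5 passed the interaction, and Gpt2, Trp53inp2 and Pole2 were named after their values were seen.

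**Figure D5:**
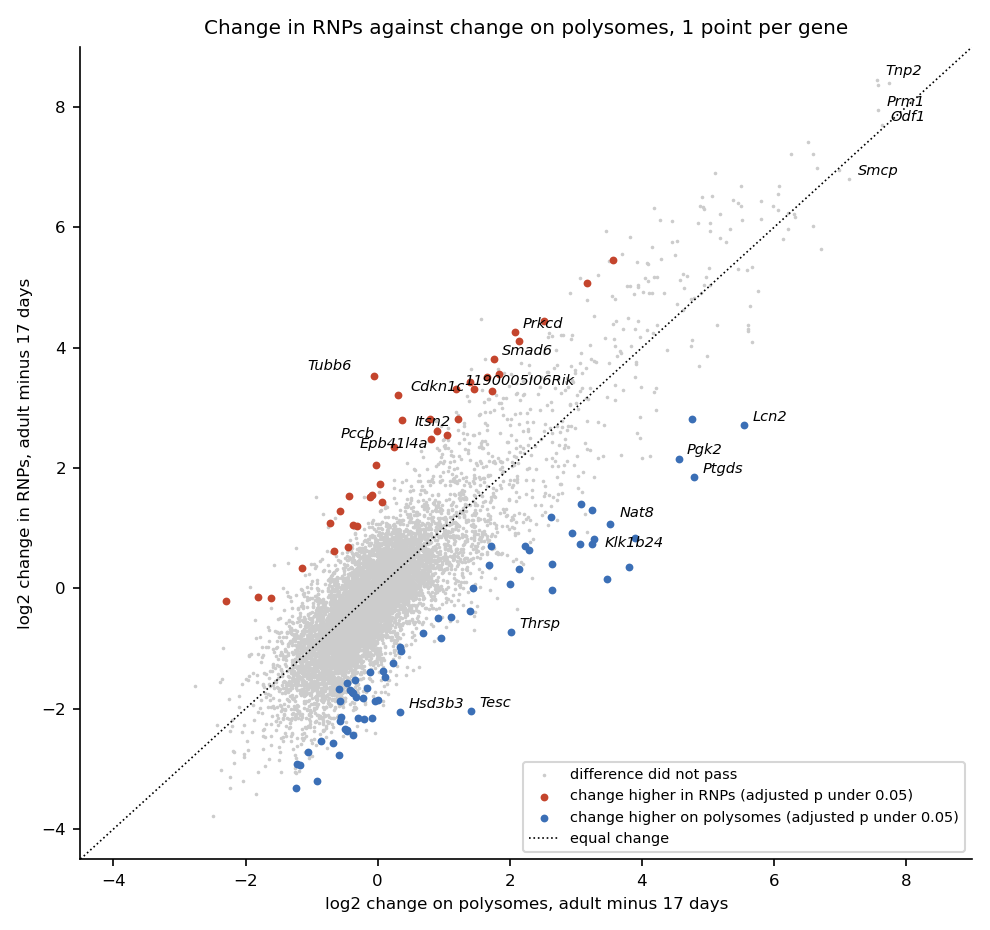
Log2 change of each of 8713 genes on polysomes (horizontal) and in RNPs (vertical), adult minus 17 days, with equal change dotted. Red and blue points are the 37 and 67 genes whose change was higher in RNPs or on polysomes by the interaction test; Tubb6 and Cdkn1c lie above the line, and Tesc, Ptgds, Lcn2 and Pgk2 below it.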

How the data were processed

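The deposited values are array intensities on a linear scale, made by the authors with MAS5 per the submitters' processing notes, on 18 arrays in 6 groups of 3. MAS5's version and settings are not stated in what was used here. Every array has the same trimmed mean (2% trimmed at each end), and 0 value columns were left without a sample. Of 22690 probe sets 64 are controls; of the other 22626, 20393 name 1 gene, 691 several and 1606 none, and only probe sets with 1 gene were named.

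Values were taken as log2(intensity + 15), 15 being the 25th percentile of all values, and kept where at least 3 of 18 arrays passed 51.6, the 50th percentile. Tests used limma 3.58.1 in R 4.3.3 with a variance trend (12 residual and 6.51 prior degrees of freedom), 1 mean per group, and Benjamini-Hochberg adjustment over 14066 probe sets at 0.05. The fit was tested on simulated data with errors independent between arrays. Its calls under the correlation between same-numbered fractions were not tested there. The change in RNPs minus that on polysomes was the interaction term. The labels do not state that same-numbered fractions of an age came from 1 gradient. Numbers were taken to pair them because their deviations correlated at 0.197 to 0.585 in all 9 pairs. The source of that correlation was not tested.

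Genes named by rule were the 12 largest rises and falls with ages that did not overlap, the 4 largest called members of each list (2 for lists under 10), a fixed set, and the 8 largest differences between fractions in each direction. In the fixed set no Gapdh probe set that names 1 gene was tested. Other list members, and neighbours of the protamine genes, were named after their values were seen. The members and lists were chosen with earlier results of these data known. Alternatives were 3 other scalings, 2 pseudocounts, 2 filters, only the arrays compared, no variance trend, arrays left out and replicate blocks. Promoter sequences are from RefSeq (GRCm38.p6).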

Additional observations from a re-analysis of the deposited data

Results flagged for a closer look

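The change from 17 days to adulthood differed between RNPs and polysomes, by the interaction term of the limma fit, for 22 of the genes named in the report. On the log2 scale, RNP change minus polysome change, it was higher in RNPs for Tubb6 (3.57), Cdkn1c (2.9), Itsn2 (2.43), Prkcd (2.19), 1190005I06Rik (2.12), Pccb (2.1), Epb41l4a (2.07), Smad6 (2.05), Nr4a1 (1.68) and the pyruvate kinase gene Pkm (1.86). It was lower in RNPs for Tesc (-3.46), Ptgds (-2.94), Lcn2 (-2.83), Thrsp (-2.75), Klk1b24 (-2.45), Nat8 (-2.44), Hsd3b3 (-2.41), Pgk2 (-2.4), Txn1 (-2.28), Rpa2 (-2.08), Pgam1 (-1.58) and the proteasome gene Psmb1 (-1.09).

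Of these 22 genes, 12 kept the call without each of 12 arrays in turn: Prkcd, Smad6, Tubb6, Cdkn1c, Itsn2, Lcn2, Ptgds, Klk1b24, Thrsp, Tesc, Txn1 and Rpa2. The other 10 lost it without at least 1 array, at adjusted p-values of 0.0505 to 0.102. Leaving out polysome 17-day replicate 1 ended 9 of them, and leaving out polysome 17-day replicate 3 ended all 10. Txn1 has a second probe set that was called the other way in RNPs. In the interaction, second probe sets of Txn1 (0.49), Rpa2 (-0.51) and Psmb1 (-0.25) did not pass (adjusted p 0.466 to 0.732). That of Ptgds did (-2.85, adjusted p = 0.00139).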

How the results depend on the processing

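The median change of 2 gene lists changed sign: somatic glycolysis (-0.13) was at 0.01 to 0.02 under the 3 other scalings and at 0.05 with the filter at the 75th percentile, and Leydig cell genes (0.18) were at -0.05 with that filter. No named gene's call turned to the opposite direction. The count of probe sets changed in RNPs, adult minus 17 days, ranged from 4127 to 7053 around 6462. Its lowest value came with the low-value filter at the 75th percentile (4127, of which 1249 rose and 2878 fell), where fewer probe sets were tested. The count of probe sets whose change differed between RNPs and polysomes was less stable: 164 became 83 with only the arrays compared in the fit, 374 without 17-day replicate 2 and adult replicate 1 of both fractions, and 1567 with age by replicate number as a block pairing the fractions. Leaving out 1 array at a time gave 49 to 328, and of the 22 named genes with a difference it kept 12 at the lowest and 22 at the highest. The cause was not tested.

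Same-numbered arrays of different ages did not deviate together in RNPs (17 days against adult, r = -0.293, -0.227 and 0.165), so numbers were not taken to pair ages. With the replicate number as a block across ages all the same, 2067 probe sets rose and 4641 fell, and Clu passed (adjusted p = 0.0347). Of the values of named genes in RNPs under the alternatives, 1751 stayed on their side of the threshold, 40 lost the call and 1 gained it. Of the named differences, 429 stayed and 72 lost it. With 3 arrays a group, small changes of dim transcripts near background can be missed here.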
